A study of Mus musculus with 24 samples.

Results

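The BAF complex core subunit genes are 10 genes of the mouse, named Arid1a, Arid1b, Smarca2, Smarca4, Smarcb1, Smarcc1, Smarcc2, Smarcd1, Smarcd3, and Smarce1. They were chosen by name. The peaks described here are those that overlapped the body of one of these genes in GENCODE vM21 (GRCm38, mm10) or the 20 kb on either side. There were 590 such peaks among the 314954 peaks on the main chromosomes in 6 lists, and none was counted for more than 1 gene. The 10 genes were set beside all 21951 protein-coding genes of the annotation.

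ChIP-seq collects chromatin fragments with an antibody, and positions where reads pile up above unenriched input chromatin are called as peaks. The antibodies were against 3 transcription regulators (TRs), and the tissue was the cortex of wild-type mice on a CD1 background taken from embryos at the days of gestation E15.5 and E18.5. The groups shared genotype and tissue and differed in antibody and age, with no treatment. Each TR had 2 ChIP and 2 input libraries per stage, 24 in all. ARID1B is itself a subunit of the BAF complex, FOXP1 is a forkhead transcription factor, and TCF7L2 is a transcription factor of the Wnt pathway. The sample labels call the last target TCF4, an older name of TCF7L2 that another gene also bears, and the antibody listed by the study is against TCF7L2. The lists used here were called by the authors on the merged replicates, so no value below carries a spread between replicates and no test was made. The tissue mixed progenitors, neurons, and other cells, so that binding in fewer cells and weaker binding in each cell cannot be told apart. Among genes picked after the lists were seen, Emx1, Neurod2, and Neurod6, which are active in the cortex, carried a peak at the promoter in each of the 6 lists, while Alb, Myod1, Ins2, and Cdx2, which mark other tissues, had none in any.

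The BAF complex uses ATP to slide and evict nucleosomes and so opens promoters and enhancers. SMARCA4 and SMARCA2 are alternative ATPases. ARID1A and ARID1B are alternative subunits that bind DNA with little regard for sequence and mark the canonical form of the complex. SMARCC1, SMARCC2, SMARCD1, SMARCD3, SMARCB1, and SMARCE1 form the core on which the rest is assembled. In the developing cortex the complex serves both the division of progenitors and the maturation of neurons, and mutations of several of its genes, ARID1B above all, cause neurodevelopmental disorders.

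All 10 genes had a promoter peak of each TR at each stage, where a promoter is the 2000 bp upstream of any annotated transcription start site (TSS). Among all protein-coding genes, a promoter peak was found for 58.8% (ARID1B), 61.8% (FOXP1), and 57.3% (TCF7L2) at E15.5. At E18.5, the shares were 57.3%, 55.0%, and 61.2% in the same order. A promoter peak in all 6 lists was found for 51.8% of genes. This share rose with the CpG content and the number of TSSs. It was 86.2% among 8689 genes whose RefSeq promoter had an observed to expected CpG ratio of at least 0.6, beside 54.1% among all 16539 genes with a RefSeq promoter. The 9 members with a RefSeq promoter all belonged to the CpG-rich class. Of the 10 members, 7 had 6 to 9 annotated TSSs, a class in which 80.9% of genes had a promoter peak in all 6 lists, and Smarca2 had 42.

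The height of a peak is its fold enrichment, which is the ratio of the scaled reads over the summit to the genome-wide background. MACS2 adds a pseudocount of 1 to each. The background was 2.81 for FOXP1 at E18.5 and 6.13 to 8.63 in the other lists, in scaled reads. Each ChIP read counted as 0.561 for FOXP1 at E18.5, 0.775 for TCF7L2 at E15.5, and 0.856 for ARID1B at E15.5. In the other lists it counted as 1. The unscaled reads over each summit were recovered as whole numbers. Intervals are exact 95% Poisson intervals on those reads and cover counting error only. Since antibody and background differ between lists, each fold enrichment is also given as a percentile among the protein-coding genes with a promoter peak in the same list. The median over the 10 members of the highest promoter peak at E15.5 was 6.68 (ARID1B), 14.4 (FOXP1), and 9.11 (TCF7L2). The medians over the protein-coding genes were 5.17, 10.6, and 6.40. At E18.5, the members had medians of 6.73, 10.2, and 9.20, and the coding genes had 5.61, 8.65, and 6.57. In percentiles, the members' medians at E15.5 were 81.3, 78.2, and 88.2. Those at E18.5 were 71.8, 70.2, and 85.7. The highest peak is taken over all promoters of a gene, so a gene with more TSSs has more peaks to draw it from. The percentiles here and below were not matched for the number of TSSs or for CpG content. Between 8 and 10 of the 10 members lay at or above the coding median in each list, with all 10 for TCF7L2 at both stages.

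**Figure D1:**
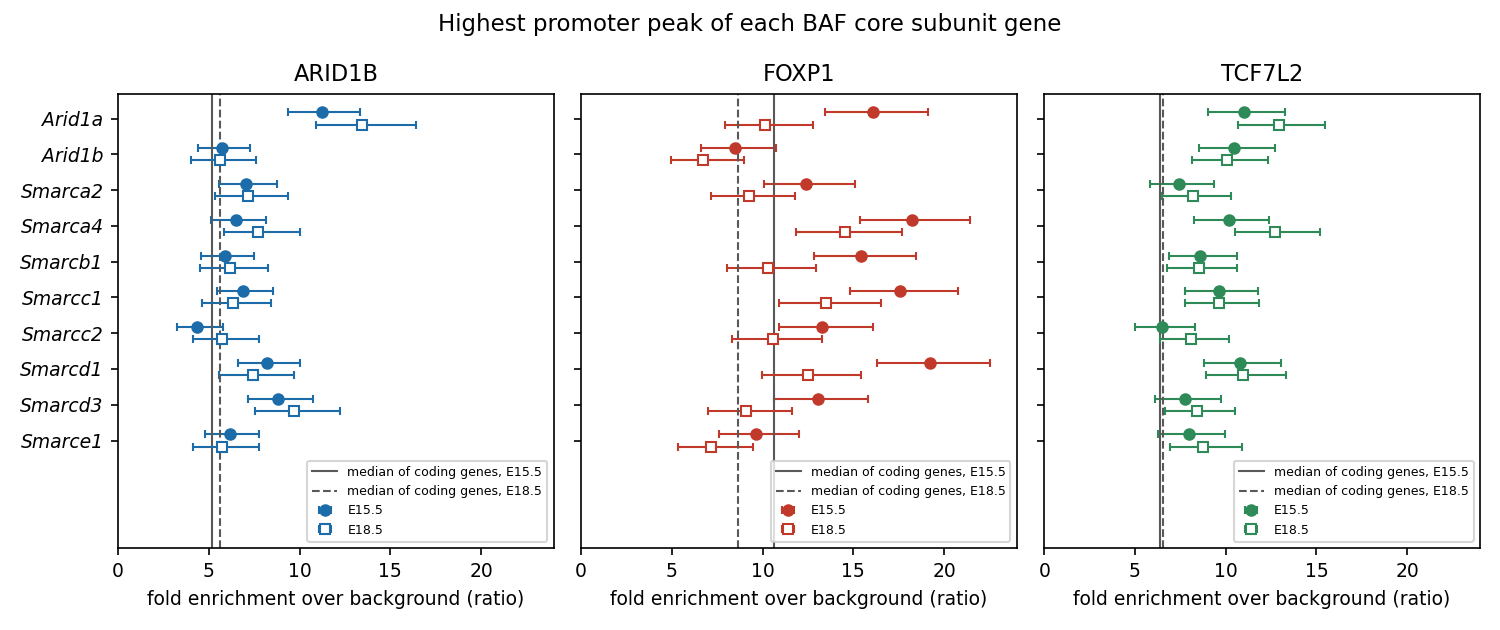
Highest promoter fold enrichment over background (x axis, ratio) of the 10 BAF core subunit genes (y axis) for ARID1B, FOXP1, and TCF7L2, with filled circles for E15.5, open squares for E18.5, and bars for 95% Poisson intervals of the reads. Vertical lines are the medians of all protein-coding genes with a promoter peak, solid for E15.5 and dashed for E18.5. Arid1a stands highest in the ARID1B panel with 11.2 and 13.5.

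Arid1a and Arid1b encode the alternative ARID subunits. The Arid1a promoter (gene on chromosome 4, 133679008 to 133756769, minus strand) had an ARID1B fold enrichment of 11.2 at E15.5 (interval 9.35 to 13.3, percentile 98.7) and 13.5 at E18.5 (10.9 to 16.4, percentile 99.1). Its FOXP1 values were 16.1 (13.4 to 19.1, percentile 88.1) and 10.1 (7.90 to 12.8, percentile 69.3). Its TCF7L2 values were 11 (9.0 to 13.3, percentile 97.1) and 12.9 (10.7 to 15.46, percentile 98.7). Arid1a was thus the highest of the 10 members for ARID1B and TCF7L2 at both stages. These peaks did not sit on the first TSS of the gene at 133756769. Their summits fell within 123 bp of each other around position 133754413, 2.36 kb into the gene, at -352 to -475 bp from a TSS at 133753982. At the first TSS, the same lists gave a lower peak of 5.35 to 9.24. The sequence around the 6 summits, read like all others here from the C57BL/6J reference of RefSeq (GRCm38.p6), is shown 5′ to 3′ in the direction of the gene because it held the highest ARID1B and TCF7L2 promoter peaks of the 10 genes. No capitals appear in it, since none of the motifs searched below matched.
Arid1a, internal promoter (chr4:133754313-133754513, minus strand): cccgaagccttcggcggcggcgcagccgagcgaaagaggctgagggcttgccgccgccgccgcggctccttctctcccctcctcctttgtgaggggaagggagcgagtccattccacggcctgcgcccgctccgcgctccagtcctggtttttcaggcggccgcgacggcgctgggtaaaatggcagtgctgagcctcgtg

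The Arid1b promoter (chromosome 17, 4994332 to 5347656, plus strand) had ARID1B values near the middle of all genes, 5.70 at E15.5 (4.41 to 7.27, percentile 62.8) and 5.61 at E18.5 (4.03 to 7.62, percentile 48.8). The FOXP1 values were the lowest of the 10 members, 8.48 (6.59 to 10.8, percentile 34.4) and 6.74 (4.97 to 8.96, percentile 26.3). TCF7L2 stood apart from these with 10.5 (8.53 to 12.7, percentile 95.8) and 10.1 (8.13 to 12.34, percentile 92.3). Arid1b was the member at which TCF7L2 gave the highest fold enrichment of the 3 TRs at both stages while the other TRs lay near or below the coding median. The promoter held 2 separate sites in all 6 lists. At the upstream site, around position 4994384 and at -37 to 118 bp from the first TSS, TCF7L2 reached its 10.5 and 10.1. At the downstream site, around 4995803 in the exon of the coding transcripts, TCF7L2 had 6.61 and 7.12 and FOXP1 had 8.48 and 6.30. The upstream site is printed because the TCF7L2 summits fell there. None of the motifs searched below matched in it.
Arid1b, upstream promoter site (chr17:4994284-4994484, plus strand): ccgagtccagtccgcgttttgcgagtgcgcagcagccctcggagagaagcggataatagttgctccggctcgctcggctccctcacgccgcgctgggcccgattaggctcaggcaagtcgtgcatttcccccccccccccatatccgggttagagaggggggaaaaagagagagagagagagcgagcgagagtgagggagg

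Smarca4 and Smarca2 encode the ATPases. The Smarca4 promoter (chromosome 9, 21616169 to 21704230, plus strand), which the peaks shared with the promoter of the microRNA gene Mir1946b, was among the highest for FOXP1 and TCF7L2. FOXP1 gave 18.2 at E15.5 (15.4 to 21.4, percentile 93.7) and 14.5 at E18.5 (11.8 to 17.7, percentile 97.5), the highest of the 10 members at E18.5. TCF7L2 gave 10.2 (8.25 to 12.4, percentile 94.8) and 12.7 (10.5 to 15.2, percentile 98.5). ARID1B gave 6.5 (5.11 to 8.16, percentile 78.9) and 7.71 (5.83 to 10.0, percentile 85.2). The summits lay at -67 to -341 bp from the TSS, with those of ARID1B farthest from it. The window around the median summit is shown with motif matches in capitals. They are a TCAAAG, the core of TCF/LEF sites, a GCATGCGC, the core of NRF1 sites, and 3 GGGCGG boxes, read on either strand.
Smarca4, promoter (chr9:21615931-21616131, plus strand): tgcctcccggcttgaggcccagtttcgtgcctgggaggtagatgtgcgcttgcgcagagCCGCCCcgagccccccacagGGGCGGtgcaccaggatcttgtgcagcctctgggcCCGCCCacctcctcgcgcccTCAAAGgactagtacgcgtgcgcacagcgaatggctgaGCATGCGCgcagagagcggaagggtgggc

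The Smarca2 promoter (chromosome 19, 26605050 to 26778322, plus strand) had values in the middle to upper range for all 3 TRs. ARID1B gave 7.04 (5.58 to 8.76, percentile 85.7) at E15.5 and 7.15 (5.35 to 9.39, percentile 78.8) at E18.5. FOXP1 gave 12.4 (10.1 to 15.1, percentile 64.3) and 9.24 (7.13 to 11.8, percentile 57.7), and TCF7L2 gave 7.44 (5.83 to 9.37, percentile 68.7) and 8.21 (6.47 to 10.3, percentile 75.3). With 42 TSSs the gene has many annotated promoters, and 12 separate sites touched one of them, of which 3 were in all 6 lists. Besides the first TSS, these were an internal cluster of coding TSSs 143 kb into the gene and a site 165 kb into it. At the internal cluster, ARID1B gave 7.04 and 6.73, FOXP1 10.5 and 8.65, and TCF7L2 7.34 and 6.90. For ARID1B at E15.5, this internal peak was the highest of the gene, ahead of 6.5 at the first TSS, a difference smaller than the counting interval of either. At the third site the values ran from 3.68 to 6.2. The summit window at the internal cluster had 5 CpGs and an observed to expected ratio of 0.490, against 16 and 0.773 at the first TSS.

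Smarcc1 and Smarcc2 encode the paired scaffold subunits. At Smarcc1 (chromosome 9, 110117708 to 110240178, plus strand), 2 promoters were bound in all 6 lists. The first TSS lies head to head with Dhx30, an RNA helicase gene, and the peaks there overlapped both promoters. The stronger peaks lay 14.2 kb downstream, at the TSSs of 110131980 and 110132037 from which the full-length coding transcripts start. There FOXP1 gave 17.6 at E15.5 (14.8 to 20.8, percentile 92.7) and 13.5 at E18.5 (10.9 to 16.5, percentile 95), TCF7L2 gave 9.63 at both stages (percentiles 92.2 and 89.6), and ARID1B gave 6.86 and 6.31 (percentiles 83.7 and 64.7). At the promoter shared with Dhx30, FOXP1 gave 14.3 and 8.50, TCF7L2 6.40 and 7.12, and ARID1B 4.55 and 5.75. The downstream promoter was therefore higher in each of the 6 lists. The 200 bases before its TSS are shown for this reason, with a CCGGAAG, the core of ETS sites, and a GCATGCGC in capitals, the latter read on the other strand.
Smarcc1, downstream promoter (chr9:110131780-110131979, plus strand): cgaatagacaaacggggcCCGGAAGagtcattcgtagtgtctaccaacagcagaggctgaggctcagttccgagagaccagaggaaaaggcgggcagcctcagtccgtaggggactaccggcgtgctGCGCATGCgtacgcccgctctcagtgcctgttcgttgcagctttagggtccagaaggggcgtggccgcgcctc

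Smarcc2 (chromosome 10, 128459248 to 128490482, plus strand) had the lowest promoter values of the 10 members for ARID1B at E15.5 and for TCF7L2 at both stages. ARID1B gave 4.37 (3.25 to 5.76, percentile 27.8) and 5.75 (4.15 to 7.78, percentile 52.2), and TCF7L2 gave 6.50 (5.01 to 8.31, percentile 51.6) and 8.10 (6.37 to 10.2, percentile 73.8). FOXP1 gave 13.3 (10.9 to 16.1, percentile 71.3) and 10.6 (8.29 to 13.3, percentile 74.8). The TRs did not share a summit here. The ARID1B summits lay at -295 and -344 bp from the Smarcc2 TSS, whereas those of FOXP1 and TCF7L2 lay at -603 to -701 bp. RefSeq annotates a serine tRNA gene, n-TScga2, on the minus strand at 128458464 to 128458545, which was noted after the values were seen. The FOXP1 and TCF7L2 summits lay 2 to 100 bp from the start of this tRNA gene and the ARID1B summits 359 and 408 bp from it. The peaks also overlapped the promoter of the microRNA gene Mir8105. Among 403 tRNA genes of RefSeq, 42.2% and 38.7% overlapped an ARID1B peak at E15.5 and E18.5, 55.3% and 47.1% a FOXP1 peak, and 46.7% and 49.9% a TCF7L2 peak. The part of the promoter peak that belongs to Smarcc2 was not tested. The summit window is shown because it spans the start of the tRNA gene, without a motif match.
Smarcc2, promoter with the tRNA gene (chr10:128458512-128458712, plus strand): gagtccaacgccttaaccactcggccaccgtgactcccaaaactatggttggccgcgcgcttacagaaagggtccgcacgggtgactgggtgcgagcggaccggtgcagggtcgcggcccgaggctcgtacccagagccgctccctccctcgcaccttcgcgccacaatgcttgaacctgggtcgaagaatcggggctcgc

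Smarcd1 and Smarcd3 encode alternative forms of a subunit that links the complex to transcription factors. Smarcd1 (chromosome 15, 99702129 to 99713991, plus strand) had the highest FOXP1 promoter peak of the 10 members at E15.5, 19.2 (16.3 to 22.5, percentile 95), and 12.5 at E18.5 (9.99 to 15.4, percentile 90.9). TCF7L2 gave 10.8 (percentile 96.8) and 10.9 (percentile 95.5), and ARID1B gave 8.19 (percentile 93.6) and 7.43 (percentile 82.2). With the 6 percentiles between 82.2 and 96.8, Smarcd1 was the member with the highest lowest value. All 6 summits lay within 234 bp downstream of its first TSS.

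Smarcd3 (chromosome 5, 24590818 to 24624411, minus strand), the form associated with muscle and neurons, had its highest promoter peaks at the first TSS. ARID1B gave 8.81 (percentile 95.7) and 9.68 (percentile 95.6), the second highest of the members after Arid1a. FOXP1 gave 13.0 (percentile 69.2) and 9.09 (percentile 55.7), and TCF7L2 gave 7.75 (percentile 73.6) and 8.43 (percentile 78.0). With 87 peaks over 33.6 kb and its flanks, Smarcd3 was the most densely bound of the 10. Of its sites, 3 touched an own promoter in all 6 lists, at the first TSS, around the internal TSS of 24602012, and around the TSSs of noncoding transcripts 27.4 kb into the gene. The place of the internal peaks shows what the promoter limit does. The FOXP1 summits at 24604874 and 24604887 lay at -2862 and -2875 bp from the internal coding TSS and counted as intronic, with 12.9 at E15.5 and 8.80 at E18.5. They were the highest FOXP1 peaks outside promoters in all 10 regions.

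Smarcb1 and Smarce1 encode a subunit that contacts the nucleosome and an HMG-box subunit. Smarcb1 (chromosome 10, 75896769 to 75921617, minus strand) had FOXP1 values of 15.4 (percentile 85.2) and 10.3 (percentile 71.2), TCF7L2 values of 8.59 (percentile 84.1) and 8.54 (percentile 79.3), and ARID1B values of 5.88 (percentile 66.9) and 6.17 (percentile 61.9). Its summits lay 39 to 233 bp inside the gene rather than upstream of it. Smarce1 (chromosome 11, 99209047 to 99231017, minus strand) had the fewest peaks of the 10, 9 over the 6 lists, and 6 of them were its promoter peaks. Its FOXP1 values of 9.62 and 7.18 were low (percentiles 42.2 and 30.9), its TCF7L2 values of 7.96 and 8.76 were higher among genes (percentiles 76.7 and 81.8), and its ARID1B values were 6.15 and 5.75 (percentiles 72.3 and 52.2).

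Outside promoters, the 10 genes differed widely in how many peaks they held. Of the 590 peaks, 158 touched a promoter of the member, 116 a promoter of another gene, 219 lay in introns, 20 in exons, and 77 in the flanks. Arid1b alone held 169 peaks, of which 138 were intronic. Smarca4, with a gene body of 88.1 kb, held 19 in all and 3 in its introns. By list, the peaks in the 10 regions at E15.5 numbered 135 (ARID1B), 100 (FOXP1), and 67 (TCF7L2). Those at E18.5 numbered 112, 60, and 116. Promoters of the members made up 22.2%, 23%, and 34.3% of the peaks at the earlier stage and 26.8%, 41.7%, and 23.3% at the later one. Per 100 kb of gene body, the members held 6.93, 4.37, and 2.13 peaks outside all promoters at E15.5, against 2.62, 2.24, and 0.916 for all protein-coding genes. At E18.5, they held 5.22, 1.92, and 4.90 against 2.51, 0.519, and 1.83. The order of FOXP1 and TCF7L2 at E18.5 differed between thresholds. Of peaks with a fold enrichment of at least 4, FOXP1 had 18 in the gene bodies outside promoters at E15.5 and 15 at E18.5, where all its peaks gave 41 and 18. TCF7L2 had 8 and 13, where all its peaks gave 20 and 46. Where −log10 p had to reach 15, FOXP1 had 13 and 3 and TCF7L2 had 6 and 11.

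**Figure D2:**
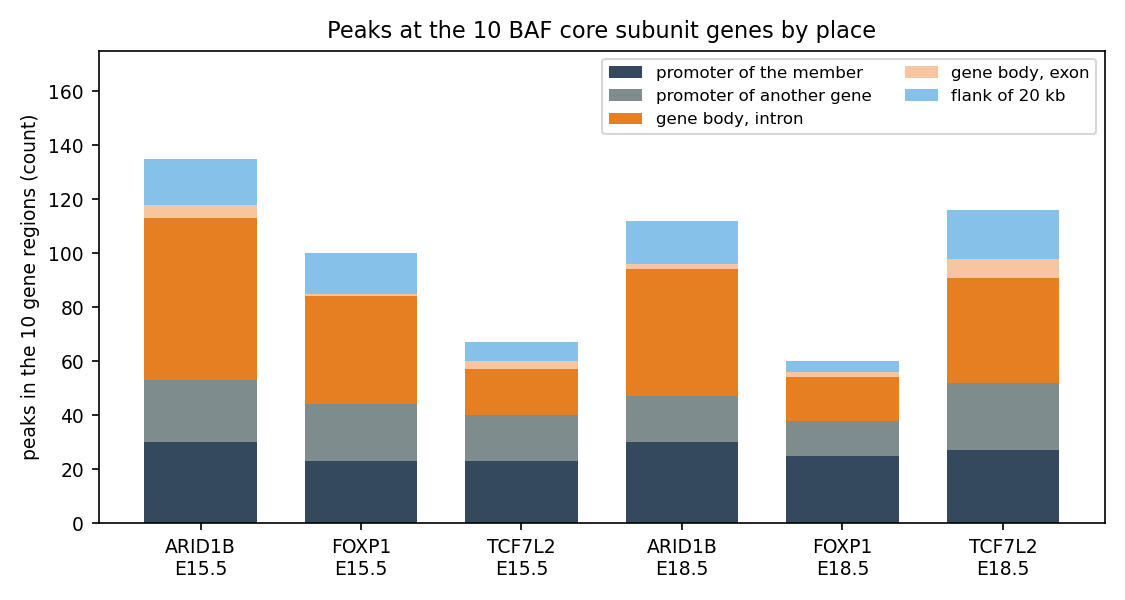
Number of peaks (y axis, count) in the 10 gene regions in each of the 6 lists (x axis), stacked by place. The ARID1B list at E15.5 has 135 peaks, of which 60 are intronic, and the FOXP1 list at E18.5 has 60, of which 16 are intronic.

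The density was set by few genes. In Arid1b, ARID1B had 45 peaks outside promoters at E15.5 and 30 at E18.5, or 12.7 and 8.49 per 100 kb, which placed the gene at percentiles 97.9 and 95 of protein-coding genes of at least 20 kb. FOXP1 fell from 27 such peaks to 6 (percentiles 94 and 88.6), and TCF7L2 went from 7 to 23 (percentiles 84.6 and 92.4). These counts of Arid1b alone were not repeated at a higher threshold. The whole lists moved the same way, from 64059 to 24872 peaks for FOXP1 and from 32992 to 53173 for TCF7L2. In Smarcd3, the density was 14.9 per 100 kb for ARID1B at both stages (percentile 98.8). It was 8.93 and 11.9 for FOXP1 (percentiles 95.9 and 99.9), and 17.9 and 26.8 for TCF7L2 (percentiles 99.7 and 99.6). Smarca2 had 4 or 5 ARID1B peaks outside promoters over its 173 kb, 2.89 and 2.31 per 100 kb.

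In the Arid1b region, 54 sites lay outside promoters when the peaks of the 6 lists were joined. Of these, 21 carried ARID1B peaks only, 26 had ARID1B at both stages, 9 had TCF7L2 at both stages, and 6 had FOXP1 at both stages. In the lists as deposited, ARID1B was the TR most often found along the gene that encodes it, with 51 and 36 peaks in the region against 32 and 9 for FOXP1 and 11 and 30 for TCF7L2. The ARID1B lists were also the longest at each stage. The genome shares of sites with ARID1B only, or with a TR at both stages, were not computed. The counts of this region were not repeated at a higher threshold. The peaks of Arid1b are described here with their distance from the 5′ end of the gene.

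**Figure D3:**
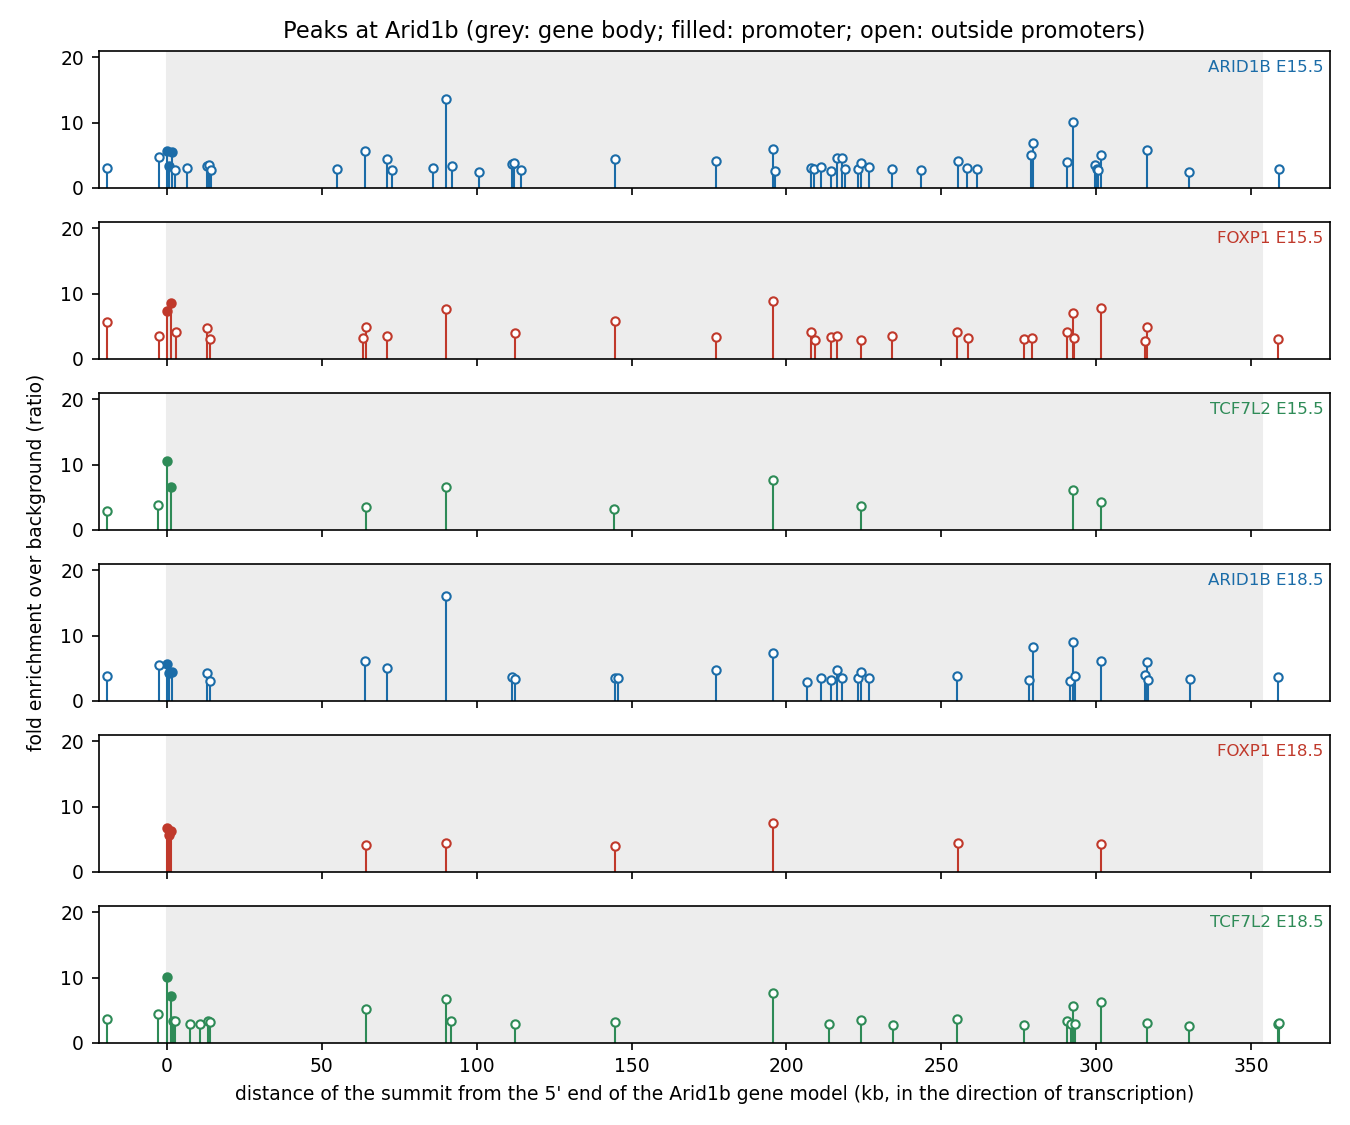
Fold enrichment (y axis, ratio) of each peak in the Arid1b region against the distance of its summit from the 5′ end of the gene (x axis, kb), with a panel per list. The gene body is shaded, filled points touch a promoter, and open points lie outside. The ARID1B panels are highest at 90.03 kb, with 13.6 and 16.0, and the TCF7L2 panels are highest at the promoter, with 10.5 and 10.1.

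Joined over the 6 lists, the 10 regions held 98 sites outside all promoters, and 8 of them (8.16%) were in all 6 lists, beside 6.51% of such sites in the genome. Of these 8, 5 lay in introns of Arid1b, 1 in an intron and 1 in the 3′ flank of Arid1a, and 1 in an intron of Smarcd3. The strongest for ARID1B was in intron 2 of Arid1b, 90.03 kb from the 5′ end. ARID1B gave 13.6 there at E15.5 (11.6 to 15.9) and 16.0 at E18.5 (13.2 to 19.2), at percentiles 99.3 and 99.5 of its peaks outside promoters, and more than at the promoter of the gene. FOXP1 gave 7.59 (5.81 to 9.76, percentile 95.6) and 4.38 (3.0 to 6.22, percentile 31.9), and TCF7L2 gave 6.61 (5.10 to 8.43, percentile 95.1) and 6.79 (5.22 to 8.69, percentile 97.4). The 6 summits fell within 40 bp of each other.

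In intron 4 of Arid1b, 196 kb from the 5′ end, the order was different. ARID1B gave 5.97 (4.64 to 7.57) and 7.29 (5.47 to 9.54), FOXP1 8.86 (6.92 to 11.2) and 7.47 (5.60 to 9.80), and TCF7L2 7.65 (6.01 to 9.60) and 7.66 (5.99 to 9.67). These values had percentiles of 85.7 to 98.5 among the peaks outside promoters of their lists. This was the strongest site outside promoters of Arid1b for FOXP1 and TCF7L2 at both stages. In intron 8, 301.5 kb from the 5′ end, ARID1B gave 5.08 and 6.17 (percentiles 78.1 and 83.4). FOXP1 gave 7.72 and 4.24 there (percentiles 95.9 and 24.4), and TCF7L2 gave 4.31 and 6.24 (percentiles 70.8 and 96.3). The other sites of Arid1b in all 6 lists had 3.48 to 6.17 (percentiles 17.1 to 91.6) in intron 2 at 64.2 kb and 3.16 to 5.82 (percentiles 10.5 to 87.4) in intron 4 at 145 kb. The lowest percentile of both was that of FOXP1 at E18.5. A site in intron 7 at 292.5 kb had the second highest ARID1B peaks of the gene outside promoters, 10.1 and 8.98, and lacked a FOXP1 peak at E18.5.

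The windows around 3 of these sites are shown with motif matches in capitals, since the intron 2 site is the strongest ARID1B site in the 10 regions, the intron 4 site the strongest FOXP1 and TCF7L2 site of Arid1b outside promoters, and the intron 8 site the only one of the 8 with a forkhead match. In the intron 2 window, CAGATG, an E-box, stood 2 times. Windows of the same length held it in 34.6% and 34.1% of ARID1B peaks outside promoters at E15.5 and E18.5, and in 23.3% to 27.2% of those of the other TRs. In the intron 8 window, the capitals mark CCGGAAG on the other strand, overlapping matches to GCATGCGC on both strands, and TGTTTAC, the core of forkhead sites.
Arid1b, intron 2 site (chr17:5084267-5084467, plus strand): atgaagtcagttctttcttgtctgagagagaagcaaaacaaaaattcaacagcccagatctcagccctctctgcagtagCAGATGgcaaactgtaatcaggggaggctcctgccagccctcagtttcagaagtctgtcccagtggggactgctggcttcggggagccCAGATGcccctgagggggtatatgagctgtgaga
Arid1b, intron 4 site (chr17:5189848-5190048, plus strand): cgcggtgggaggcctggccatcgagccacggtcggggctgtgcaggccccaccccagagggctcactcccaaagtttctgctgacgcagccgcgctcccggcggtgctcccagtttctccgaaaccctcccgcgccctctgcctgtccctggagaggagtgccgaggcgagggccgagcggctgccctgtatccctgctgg
Arid1b, intron 8 site (chr17:5295753-5295953, plus strand): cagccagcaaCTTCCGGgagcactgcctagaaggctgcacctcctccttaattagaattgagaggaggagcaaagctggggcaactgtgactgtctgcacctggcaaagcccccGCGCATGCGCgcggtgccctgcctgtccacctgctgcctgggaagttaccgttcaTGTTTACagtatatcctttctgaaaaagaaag

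These sites also differed in base composition. The intron 2 window held 1 CpG, with an observed to expected ratio of 0.072, and the intron 4 window held 17, with 0.671. The median of the peaks outside promoters was 3 or 4 CpGs in each list, with ratios of 0.245 to 0.319. The intron 4 window thus lay nearer to the promoter peaks, whose medians were 13 to 17 CpGs and 0.702 to 0.822, although it touched no promoter of GENCODE vM21.

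Arid1a had 2 sites of similar strength outside promoters in all 6 lists. In intron 1, 26.9 kb from the 5′ end, ARID1B gave 10.1 (8.30 to 12.1) and 8.84 (6.81 to 11.3), FOXP1 12 (9.74 to 14.7) and 8.21 (6.23 to 10.6), and TCF7L2 7.02 (5.46 to 8.90) and 7.88 (6.18 to 9.91). These lay between percentiles 94.1 and 99.5 of the peaks outside promoters in their lists. In the 3′ flank, 96.1 kb from the 5′ end, ARID1B gave 9.61 (7.90 to 11.6) and 11.9 (9.54 to 14.7), FOXP1 8.99 (7.03 to 11.3) and 7.33 (5.47 to 9.63), and TCF7L2 6.71 (5.19 to 8.55) and 7.66 (5.99 to 9.67). Between it and the gene lay the promoter of Pigv, a gene of GPI anchor synthesis, with 5.47 to 11.3. The intron 1 window is shown because the 3 TRs were all near the top of their lists there, with a CAGATG on the other strand in capitals. The remaining site in all 6 lists, in an intron of Smarcd3 12.4 kb from its 5′ end, had 3.48 to 5.89.
Arid1a, intron 1 site (chr4:133729767-133729967, minus strand): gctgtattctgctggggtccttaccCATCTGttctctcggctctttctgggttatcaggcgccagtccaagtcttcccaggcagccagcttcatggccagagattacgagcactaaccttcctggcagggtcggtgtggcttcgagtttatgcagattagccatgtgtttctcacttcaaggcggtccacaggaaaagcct

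**Figure D4:**
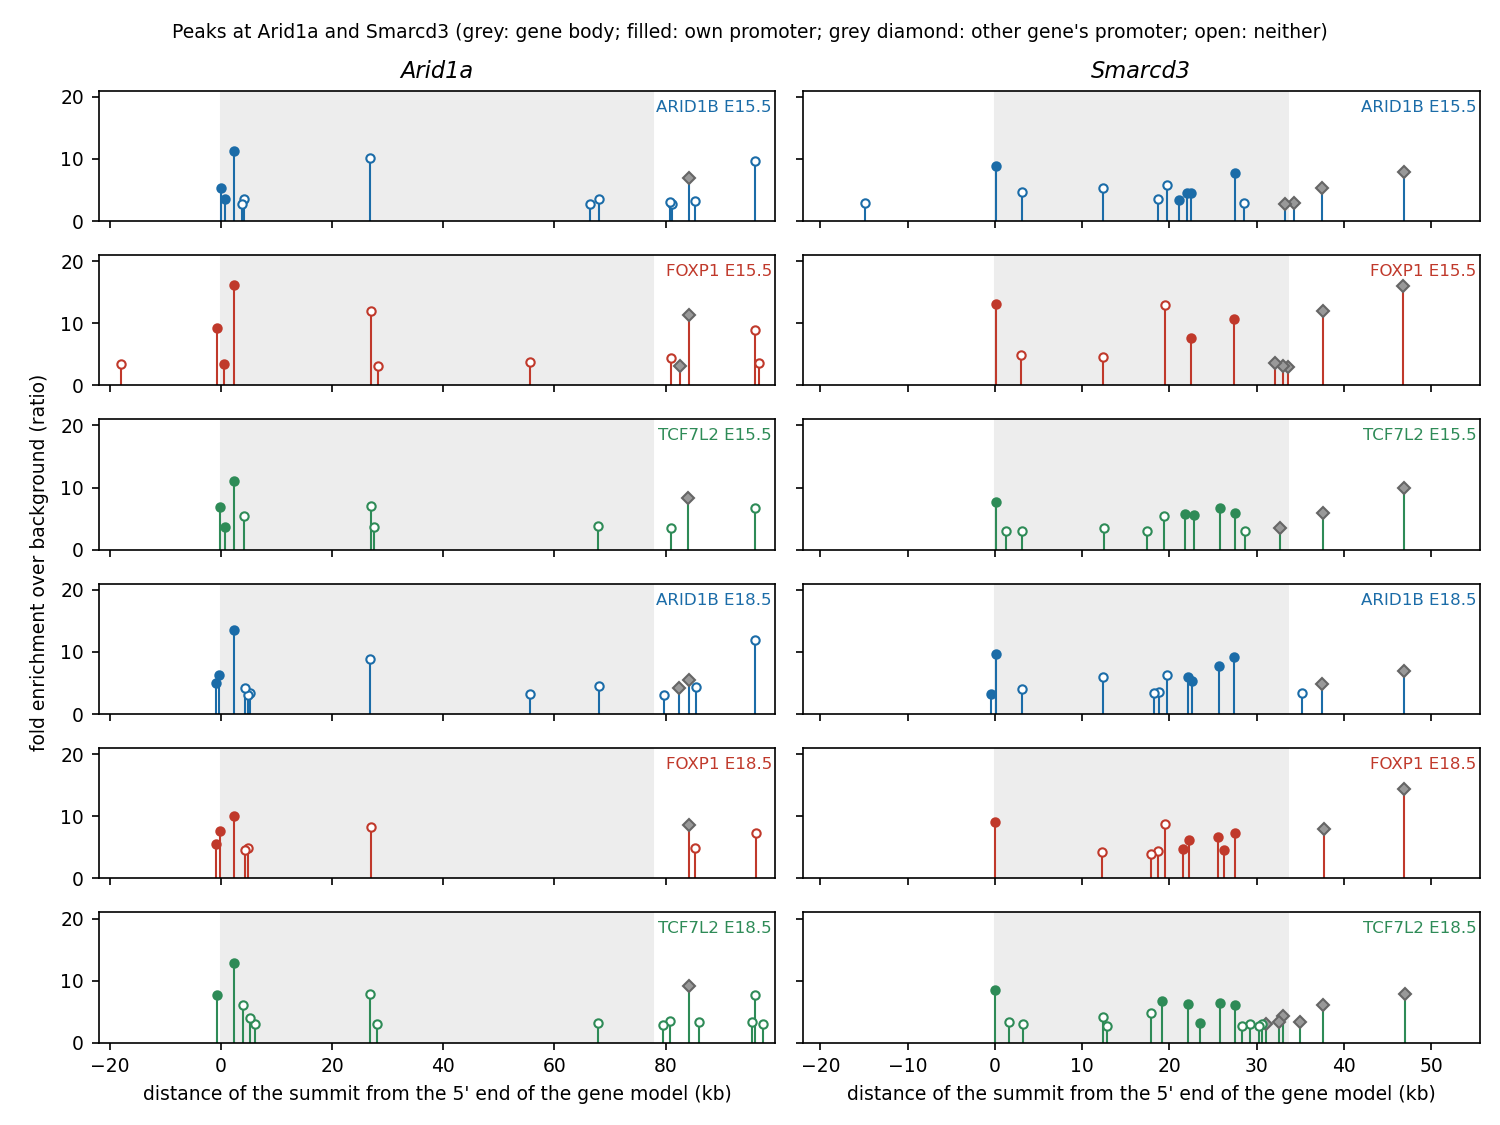
Fold enrichment (y axis, ratio) of each peak in the Arid1a and Smarcd3 regions against the distance of its summit from the 5′ end of the gene (x axis, kb), with a row per list. Shading marks the gene body, filled points touch an own promoter, grey diamonds touch the promoter of another gene, and open points touch neither. At Arid1a the promoter peak at 2.36 kb is the highest in all 6 lists.

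The remaining members held weaker peaks outside promoters. The highest were at a flank site of Smarcc2, at -3.88 kb from the TSS, where FOXP1 gave 6.2 and 6.74. At Smarca2 the highest was a FOXP1 peak of 5.57. Smarcc1 had an intronic peak at Smarcc1 88.5 kb from the 5′ end, with ARID1B at 4.37 and 5.75 and TCF7L2 at 3.79 and 5.14. The Smarca4 region had FOXP1 peaks of 5.32 and 4.53 in its upstream flank at -14.04 kb from the TSS. Smarcb1 and Smarcd1 had no peak above 4.05 outside promoters, and Smarce1 had ARID1B peaks only, up to 3.37. Of 25 sites at promoters of other genes, 12 (48%) were in all 6 lists, beside 53.1% of promoter sites in the genome. Among the 12 were those of Abcf2 and Chpf2 beside Smarcd3, Derl3 and Chchd10 beside Smarcb1, Cspg5 beside Smarcc1, Myl6 and Myl6b beside Smarcc2, and Gpd1 and Cox14 beside Smarcd1.

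The stages were compared through the highest promoter peak of each member. FOXP1 was lower at E18.5 than at E15.5 at all 10 members as deposited, with a median ratio of 0.746 and a range of 0.630 (Arid1a) to 0.798 (Smarca4). Over 12047 coding genes with both peaks, the median ratio was 0.783. The pseudocount weighs more where the background is low, as in the FOXP1 list at E18.5. With it removed, a calculation added after the values were seen, the median ratio of the members was 0.864 and that of the coding genes 0.909. The exact 95% interval of the ratio included 1 at 8 of the 10 members. The exceptions were Arid1a at 0.732 (0.536 to 0.992) and Smarcd1 at 0.757 (0.572 to 0.996), and both intervals included the coding median of 0.909. Over coding genes, the FOXP1 interval lay apart from 1 at 11.2%. For ARID1B, the median ratio of the members was 1.03 as deposited and 1.07 without the pseudocount, beside 1.08 and 1.12 over coding genes. For TCF7L2, it was 1.09 and 1.07, beside 1.06 and 1.03. All 20 intervals of these TRs included 1, while over coding genes 3.07% (ARID1B) and 0.679% (TCF7L2) did not. In 30 such ratios formed without replicates, a member whose binding changed by less than its interval was not detectable.

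**Figure D5:**
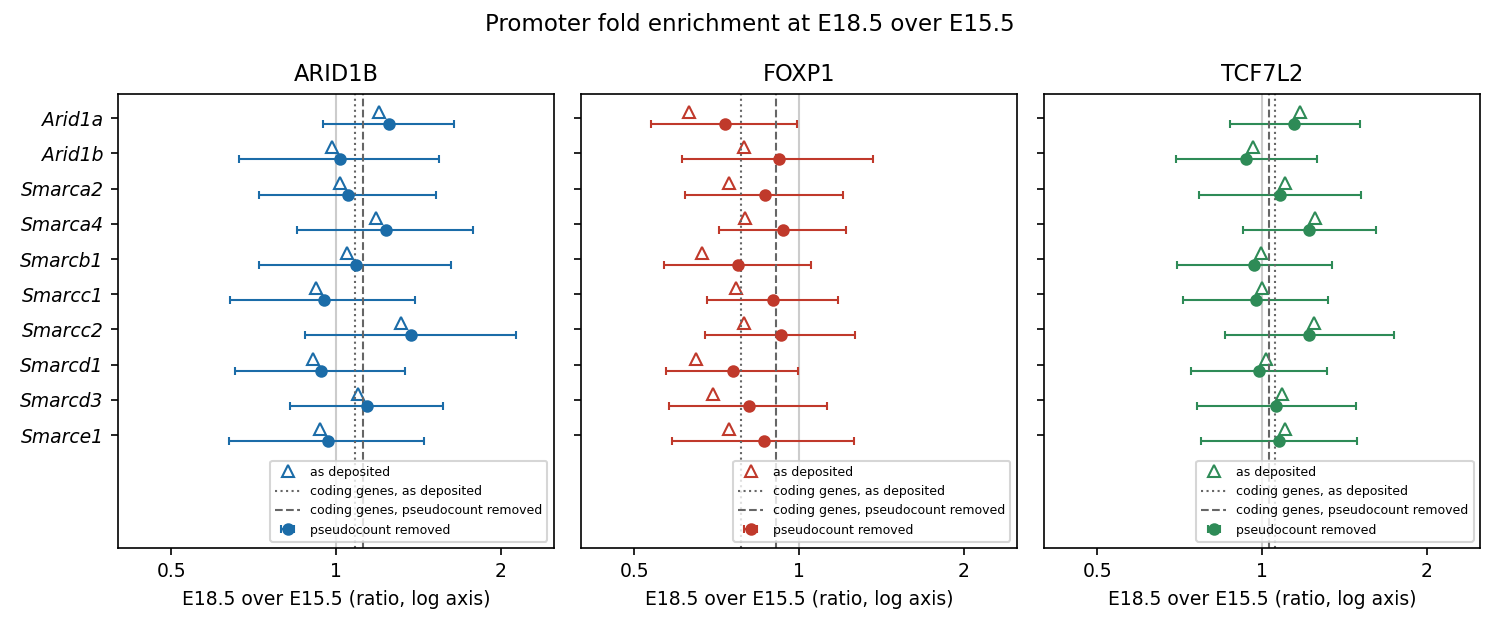
Ratio of the highest promoter fold enrichment at E18.5 to that at E15.5 (x axis, log scale) for the 10 genes (y axis). Open triangles are the values as deposited, and filled circles are those without the pseudocount, with exact 95% intervals. Dotted and dashed lines are the medians of protein-coding genes for the same calculations. The FOXP1 triangles lie between 0.630 and 0.798 and the FOXP1 circles between 0.732 and 0.934.

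The positions of the promoter peaks changed little between stages. Between E15.5 and E18.5, the highest summits of a member moved by a median of 64.5 bp for ARID1B, 87.5 bp for FOXP1, and 89 bp for TCF7L2, against 75, 58, and 63 bp over coding genes. The summits stayed within 200 bp at 8 members for ARID1B, 9 for FOXP1, and 10 for TCF7L2, beside 77%, 87.6%, and 84.7% of coding genes. The exceptions were Smarca2, where the highest ARID1B peak lay at the internal cluster at E15.5 and at the first TSS at E18.5, and Arid1b, where the highest FOXP1 peak lay at the downstream site at E15.5 and at the upstream site at E18.5. Smarcc1 moved by more than 200 bp for ARID1B, from 110131753 to 110132134. Within a stage, FOXP1 and TCF7L2 summits lay a median of 57 bp (E15.5) and 53.5 bp (E18.5) apart, against 79 and 83 bp over coding genes. ARID1B and FOXP1 summits lay 182 and 116.5 bp apart, against 94 and 101 bp. ARID1B and TCF7L2 summits lay 173.5 and 89 bp apart, against 88 and 95 bp.

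Peaks of the 3 TRs that shared at least 1 base within a stage were joined into loci. At E15.5, the 10 regions held 133 loci, of which 49 carried all 3 TRs. At E18.5, they held 130, of which 44 carried all 3. Among loci at promoters of the members, all 3 TRs were found at 18 of 27 (66.7%) at E15.5 and at 20 of 26 (76.9%) at E18.5, beside 65.7% and 57% of promoter loci in the genome. Outside promoters, they were found at 18 of 81 (22.2%) and 12 of 80 (15%), beside 18.1% and 10.4%. Of the loci outside promoters with a single TR, 29 carried ARID1B, 11 FOXP1, and 1 TCF7L2 at E15.5. At E18.5, 21 carried ARID1B, 2 FOXP1, and 23 TCF7L2, while the TCF7L2 list grew and the FOXP1 list shrank. The same split over the genome was not computed.

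In the RefSeq promoters (build GRCm38.p6, 250 bases before to 50 after the TSS), 10 sequences matched 9 members, 2 of them for Arid1a, and Smarce1 had no entry. All 10 held a GGGCGG, the GC box of SP/KLF factors, on either strand, beside 35.7% of all 32851 promoters. GCATGCGC was in 3 (Smarca4, Smarcb1, and Smarcc1), beside 2.71%, and CCGGAAG in 2 (Smarca2 and Smarcc1), beside 8.86%. TCAAAG was in 1, beside 16.0%, CAGATG in 1, beside 17.2%, and TGTTTAC, the forkhead core, in none, beside 3.65%. The promoters held a median of 34 CpGs with an observed to expected ratio of 0.938, against 7 and 0.384 over all promoters. In the 201-bp windows around the summits in all 6 lists, TGTTTAC was in none of 17 promoter windows, beside 1.23% to 1.83% of all promoter peaks in the 6 lists, and in 1 of 8 windows outside promoters, beside 2.64% to 4.11% of such peaks. GGGCGG was in 10 of the 17 promoter windows (58.8%), beside 39.8% to 54.6% of all promoter peaks. The share of GGGCGG among CpG-rich RefSeq promoters alone was not computed. Such matches describe the reference sequence of C57BL/6J and not the CD1 animals, and they do not locate binding.

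Of 21 further BAF subunit genes, 20 carried promoter peaks in every list. At E15.5, their median percentiles were 63.8 (ARID1B), 70.8 (FOXP1), and 66.1 (TCF7L2). At E18.5, these were 57.3, 53.8, and 69.1, and in every list they lay below the medians of the 10 members. The exception was Phf10, which encodes a PHD-finger subunit, which had a promoter peak in none. Ss18 and Ss18l1 encode subunits that replace each other as progenitors become neurons. Named after their values were seen, they had TCF7L2 percentiles of 99.4 and 99.5 (Ss18) and 99.4 and 98.6 (Ss18l1). Of 18 genes of other chromatin remodelers, 16 had a promoter peak in all 6 lists, with median percentiles of 50.7 to 75.8. The others, also named after their values were seen, were Smarca1, with a peak in 2 lists, and Atrx, with a peak in 5.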

How the data were processed

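The cortex of wild-type mice (E15.5, E18.5) gave ChIP and input libraries, 2 biological replicates each for ARID1B, FOXP1, and TCF7L2. As the methods describe, the authors aligned 50-bp single reads to the main contigs of GRCm38 (mm10) with bwa mem 0.7.15, filtered them with samtools for a mapping quality of at least 30, and ran MACS2 2.2.7 for narrow peaks on merged replicates at a q-value threshold of 0.01, with neither model nor local lambda and an extension of 200 bp. A step that removes duplicates was not given in the sources used here. Deposited lists from the authors give the fold enrichment, a ratio with a pseudocount of 1, and −log10 of the p-value that the authors took from MACS2.

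Background, read scale, and reads per summit were recovered from these pairs of values (100% within 0.01 in −log10 p). The script was tested on simulated data. Peaks were set against GENCODE vM21, where the study names vM23, so TSSs can differ. A peak touching a promoter of the member was counted there first, then at another gene's promoter, then in the body (intron or exon by its summit), then in the 20 kb flank. Medians, percentiles, and shares were computed in Python 3.11.15 with pandas 2.3.3, NumPy 2.4.6, and SciPy 1.17.1, and no test was made. The members, lists, and alternatives were chosen with earlier results of these data known. All 10 members are named. Other genes are named where a member's peak touched their promoter, where another BAF subunit lacked a promoter peak, or, as said beside them, after their values were seen. Summit windows were read from the reference as 201 bp around the median summit of the 6 lists, or 200 bases before a TSS for Smarcc1, in the direction of the gene.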

Additional observations from a re-analysis of the deposited data

How the results depend on the processing

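No paired analysis was possible because the peak lists used here were called on merged replicates, and for the same reason no replicate was left out. Lists of single replicates were not analysed here. All 10 members kept a promoter peak in all 6 lists with a −log10 p of at least 15, a fold enrichment of at least 4, promoters of 1000 bp or of 2000 bp upstream to 500 bp downstream, and TSSs of coding transcripts. With the summit inside the promoter, Smarcb1 lacked one in 4 lists, and its fold enrichment became 3.23 for ARID1B and 4.16 for TCF7L2 at E18.5, since its main summits lie past the TSS. Promoters of 1000 bp kept the highest peak of every member within its counting interval in all 6 lists. Counts outside promoters depended on the threshold. With a −log10 p of at least 15, the regions held 56, 49, and 38 peaks at E15.5 (ARID1B, FOXP1, TCF7L2), then 47, 30, and 46 at E18.5, and the gene bodies outside promoters 18, 13, and 6 and then 13, 3, and 11. With a fold enrichment of at least 4, the regions held 59, 57, and 45 peaks at E15.5, then 62, 54, and 51 at E18.5. The bodies then held 21, 18, and 8 at E15.5, then 20, 15, and 13 at E18.5. At this floor FOXP1 had more body peaks than TCF7L2 at E18.5, the reverse of the order of all peaks (18 and 46), and its counts differed less between stages. ARID1B had the most body peaks at each stage under both thresholds. Loci of all 3 TRs at E18.5 fell to 28 with a −log10 p of at least 15. Flanks of 10 or 50 kb moved no count of peaks by over 1.5 times. The FOXP1 list at E18.5 ended at a fold enrichment of 3.21, and the others at 2.33 to 2.66. The depth of the libraries was not analysed here.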
